A study of Homo sapiens with 6 samples.

Results

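The genes described here are 10 integrin chains that can bind extracellular matrix: ITGB1, ITGAV, ITGB3, ITGB5, ITGB8, ITGA5, ITGA1, ITGA2, ITGA3 and ITGA6. They were taken by name, and all probe sets annotated to 1 of these symbols alone were kept. This gave 33 of the 54613 non-control probe sets on the array, and the 10 genes are part of 19775 genes with such a probe set. A probe set is a group of short probes that reads 1 transcript or a few related ones.

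The samples were MHCC97H cells, an established human hepatocellular carcinoma line, that had been exposed to a sublethal 47 °C and had survived (residual cells). The POSTN group (3 samples) received 100 ng/mL recombinant periostin for 24 h, and the control group (3 samples) received 0 ng/mL for the same time. All 6 samples therefore shared the line and the heat exposure, and unheated cells are not analysed here. Each sample was read on 1 Affymetrix HG-U133 Plus 2.0 array, and nothing in the labels says that the samples numbered 1, 2 and 3 in each group came from separate cultures, so that the p-values below measure the spread between these samples.

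An integrin is a pair of an alpha and a beta chain that spans the plasma membrane, holds a matrix protein outside the cell and recruits talin, kindlin and focal adhesion kinase inside it. ITGB1 is the common beta chain that pairs with ITGA1 and ITGA2 to form collagen receptors, with ITGA3 and ITGA6 to form laminin receptors, and with ITGA5 to form the main fibronectin receptor. ITGAV pairs with ITGB1, ITGB3, ITGB5 or ITGB8 and binds the Arg-Gly-Asp sequence of vitronectin, fibronectin and the latent form of TGF-beta. Periostin is a secreted matrix protein of stellate cells and fibroblasts, and the ITGAV pairs with ITGB3 and ITGB5 are known receptors for it.

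The deposited values are log2 MAS 5.0 signals, with median values of 5.86 to 5.95 on the POSTN arrays and 5.80 to 5.87 on the control arrays. A background level of 5.98 was set from 107 olfactory receptor probe sets, which are not known to be used by this tissue, and from 47.7% to 49.7% of all probe sets lay above it per array. Of the hepatoma markers, 8 of 10 measured genes were above it, KRT8, KRT18 and AFP among them, while APOA1 and SERPINA1 averaged within background. Of the stellate cell and fibroblast markers, COL1A1, DCN and LUM were above it and the other 7 of 10 were not, including ACTA2, PDGFRB and POSTN itself. The POSTN transcript had log2 signals of 4.23, 5.60 and 3.74 on the POSTN arrays and 4.65, 1.39 and 4.75 on the control arrays.

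A signal cannot be set against that of another probe set, because probes differ in how well they bind. Each chain is therefore placed only above or within background. Of the 33 probe sets, 19 averaged above background and 14 within it. ITGAV, ITGA3 and ITGA5 were read by 1 probe set each and ITGA2, ITGA6 and ITGB5 by several, all above background. ITGB1 had 4 of 7, ITGB3 3 of 7 and ITGA1 1 of 3 above background. ITGB8 was the exception, as all 5 of its probe sets averaged within background. Set on each array alone, the background level was 6.06 to 6.45. The 3 ITGB3 probe sets above background averaged 6.86, 6.46 and 6.21, and ITGA1 226731_at 6.52, close to these levels. In ITGB3 204628_s_at, POSTN arrays 2 and 3 read 6.09 and 6.23, below their own levels of 6.45 and 6.37. Residual MHCC97H cells thus gave clear signal for ITGA2, the laminin and fibronectin receptor chains, and ITGAV with ITGB1 and ITGB5. ITGB3 and ITGA1 stayed close to background.

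**Figure D1:**
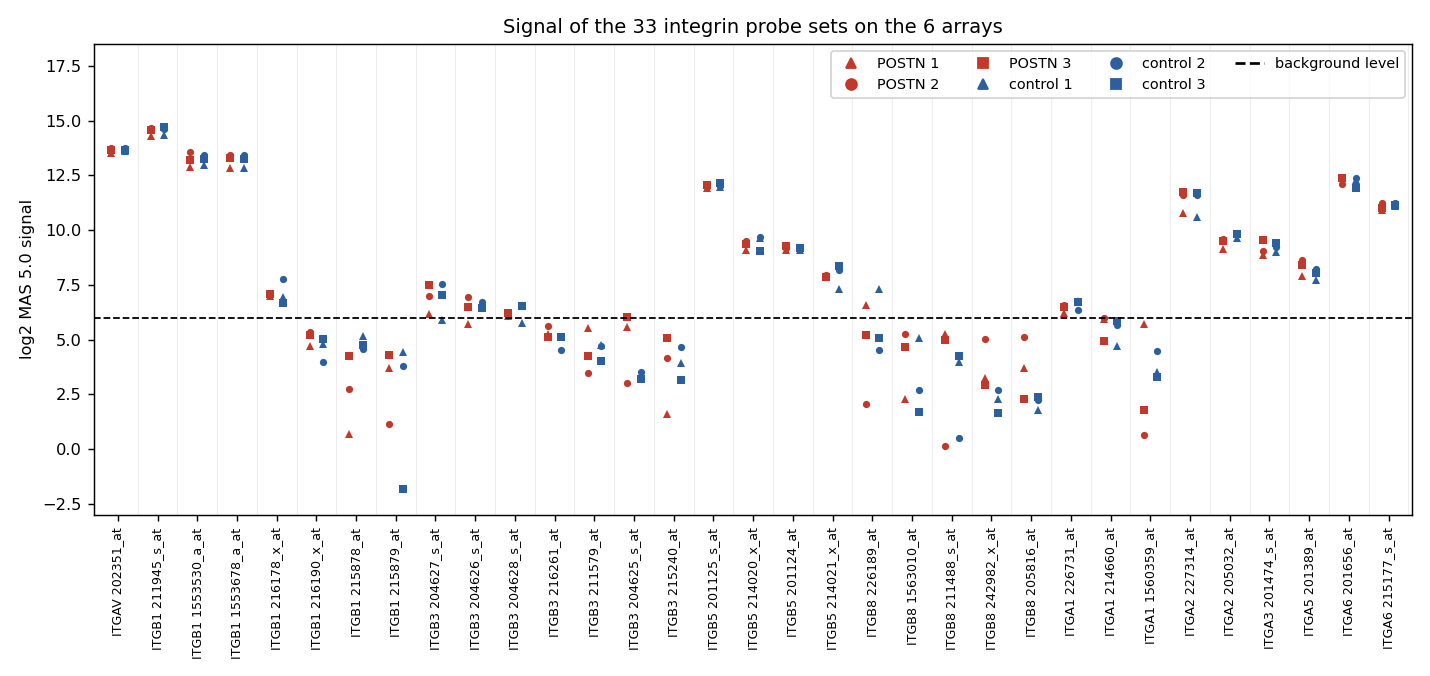
Log2 MAS 5.0 signal (vertical axis) of the 33 integrin probe sets (horizontal axis) on the 3 POSTN arrays (red) and the 3 control arrays (blue), with the marker shape giving the replicate number and the dashed line the background level of 5.98. Of the probe sets, 19 lie above the line on average and 14 below it, all 5 of ITGB8 among those below.

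POSTN and control arrays were compared to ask whether residual cells given the matrix protein carried more or less transcript of the receptors that can hold it. No chain changed by the test. At an adjusted p under 0.05 (limma, Benjamini-Hochberg over 54613 probe sets), 0 of the 33 integrin probe sets were called, and 0% of all probe sets were. Without adjustment, 2 of 33 had a p under 0.05, against 3.02% of all probe sets, and with the methods' t-test 0 of 33 did, against 3.62%. In the 19 probe sets above background the log2 difference, POSTN minus control, lay between -0.35 and 0.33, with 6 higher, 13 lower and a median of -0.055, beside a median of 0.00038 over all 25320 probe sets above background. After quantile normalization 10 of the 19 were lower, after median centring 14 and on the log2(value + 50) scale 13. The 95% confidence interval lay within 1 log2 unit on either side of 0 in 16 of the 19, so that a doubling or halving was outside the interval for these. In whole-culture RNA, fewer cells with a transcript and less transcript per cell cannot be told apart.

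ITGB1, the common beta chain, had log2 signals of 14.28, 14.66 and 14.59 on the POSTN arrays and 14.36, 14.63 and 14.70 on the control arrays in its brightest probe set (211945_s_at). The groups overlapped throughout. The difference was -0.055 (SE 0.12, 95% confidence interval -0.32 to 0.21, adjusted p = 1.0, limma). A pair of further ITGB1 probe sets differed by -0.0099 (1553530_a_at) and 0.017 (1553678_a_at), so that 3 probe sets of the gene each gave a difference close to 0. The fourth above background, 216178_x_at, which may also read related sequences, differed by -0.085 (SE 0.32).

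ITGAV, the alpha chain of the periostin receptors, had log2 signals of 13.51, 13.76 and 13.65 on the POSTN arrays and 13.61, 13.74 and 13.66 on the control arrays. Its groups overlapped, and the difference was -0.032 (SE 0.089, 95% confidence interval -0.23 to 0.17, adjusted p = 1.0, limma). ITGB5, a beta partner of ITGAV in vitronectin and periostin binding, stood at 11.92, 11.99 and 12.06 on the POSTN arrays and at 11.97, 12.02 and 12.13 on the control arrays (201125_s_at). Its difference was -0.051 (SE 0.087, interval -0.25 to 0.14), and its 3 other probe sets differed by -0.11, 0.055 and -0.059.

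ITGB3, the beta chain of the vitronectin receptor and of the platelet fibrinogen receptor, averaged above background in 3 probe sets. Its log2 signals in 204627_s_at were 6.19, 7.0 and 7.51 on the POSTN arrays and 5.88, 7.52 and 7.05 on the control arrays. Within each group the array numbered 1 was lowest, and the groups overlapped. The difference of 0.085 had an SE of 0.47 and an interval of -0.96 to 1.13, which takes in a doubling of ITGB3. The other ITGB3 probe sets above background differed by -0.17 and -0.16.

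ITGB8, which with ITGAV releases active TGF-beta from its latent complex, gave 6.59, 2.05 and 5.19 on the POSTN arrays and 7.33, 4.51 and 5.06 on the control arrays in its brightest probe set (226189_at). The difference was -1.02 with an SE of 1.14, and the 4 others ranged from 0.55 to 1.55 in the opposite direction. In 242982_x_at all POSTN arrays (3.25, 5.01 and 2.93) were above all control arrays (2.27, 2.68 and 1.64), yet both groups lay within background. No level of ITGB8 can be read from values of this kind.

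ITGA5, the alpha chain of the fibronectin receptor, showed the highest POSTN over control difference above background. Its log2 signals were 7.92, 8.62 and 8.41 on the POSTN arrays and 7.70, 8.21 and 8.05 on the control arrays. The groups overlapped, although each POSTN array lay above the control array of its own number, by 0.22, 0.41 and 0.36. The difference of 0.33 (SE 0.23, interval -0.18 to 0.83, adjusted p = 1.0, limma) did not pass the test. With the number added as a block to the fit, the interval was -0.0035 to 0.66 and the adjusted p 0.97. Leaving out 1 array at a time gave differences from 0.17 to 0.53.

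ITGA2, the alpha chain of a collagen and laminin receptor, was read by 2 probe sets that disagreed. The brighter, 227314_at, stood at 10.78, 11.59 and 11.72 on the POSTN arrays and at 10.60, 11.59 and 11.71 on the control arrays, a difference of 0.066 (SE 0.30). Same-numbered arrays lay 0.19, 0.0014 and 0.0088 apart, so that nearly all of its spread was between numbers. The dimmer, 205032_at, stood at 9.13, 9.62 and 9.50 on the POSTN arrays and at 9.62, 9.86 and 9.82 on the control arrays. Here every POSTN array was below every control array, although the nearest values of the groups both round to 9.62, and it was the only such case among the 19 probe sets above background, where 5.64% of all probe sets had groups that did not overlap. Its difference was -0.35 (SE 0.15, interval -0.69 to -0.015, adjusted p = 1.0, limma), and over all alternatives it ranged from -0.45 to -0.21 with an adjusted p of 0.97 or more. Same-numbered arrays differed by -0.50, -0.24 and -0.31. With the number added as a block, the interval was -0.56 to -0.14 and the adjusted p 0.97 (limma). A fall in ITGA2 was thus seen in 1 of its 2 probe sets, and did not pass the test.

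ITGA1, the alpha chain of another collagen receptor, was just above background in 226731_at, with 6.20, 6.60 and 6.51 on the POSTN arrays and 6.74, 6.35 and 6.72 on the control arrays. The difference of -0.17 (SE 0.32) was smaller than its error. For the laminin receptor chains, ITGA3 stood at 8.88, 9.04 and 9.56 on the POSTN arrays and at 9.0, 9.23 and 9.41 on the control arrays, a difference of -0.056 (SE 0.19). ITGA6, which also pairs with ITGB4 in hemidesmosomes, had 12.37, 12.12 and 12.37 on the POSTN arrays and 12.27, 12.38 and 11.91 on the control arrays in 201656_at. Its difference was 0.10 (SE 0.13), against -0.082 (SE 0.11) in 215177_s_at, and the groups overlapped in both.

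The study's methods call a gene at an unadjusted p under 0.05 with a fold change over 2 or under 0.5. In the limma fit, 1 of 33 integrin probe sets met this, against 2.56% of all probe sets. It was 215878_at of ITGB1, with log2 signals of 0.70, 2.77 and 4.27 on the POSTN arrays and 5.16, 4.56 and 4.78 on the control arrays. All 6 values lay within background and the difference of -2.26 had an SE of 1.0, while the 3 bright ITGB1 probe sets differed by -0.055 to 0.017. With the replicate block the count was 0. Leaving out any control array also gave 0, and leaving out POSTN replicate 3 gave 2. Over all 33 probe sets the groups did not overlap in 3, against 7.94% of all probe sets.

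**Figure D2:**
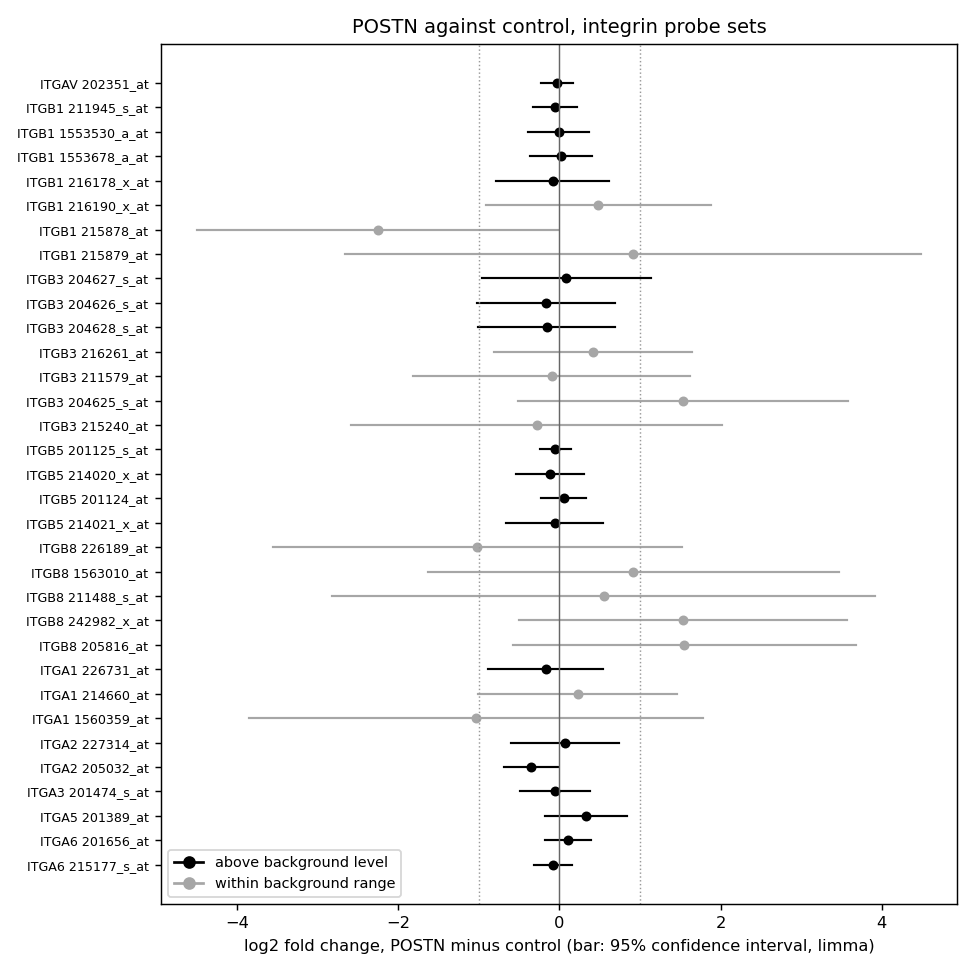
Log2 difference, POSTN minus control, of the 33 integrin probe sets with 95% confidence intervals from limma (bars), in black above background and in grey within it. The dotted lines mark 1 log2 unit on either side of 0. The black points lie between -0.35 and 0.33, and the grey ones between -2.26 and 1.55.

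The replicate numbers were compared because the arrays numbered 1 of both groups deviated together from their group means. Over all probe sets above background, those numbered 2 and 3 were hardly told apart. Here 2 of the 10 chains were called, and none when the prior variance of limma did not follow the signal. ITGA2 and ITGB1, partners in 1 collagen receptor, were lower in the arrays numbered 1 than in those numbered 2 and 3, and 18 of the 19 probe sets above background lay in that direction, as they did after quantile normalization, median centring or on the log2(value + 50) scale. The median difference over these 19, number 1 minus the mean of numbers 2 and 3, was -0.32, beside 0.015 over all probe sets above background. The quartiles over all of those were -0.18 and 0.24. The 19 hold repeated readings of 9 chains, and by brightest probe set 8 of the 9 were lower. At an adjusted p under 0.05 (limma F-test of the number, with group as a term, over 54613 probe sets), 4 of 33 were called, all lower in number 1, against 4.08% of all probe sets in either direction and 1.9% lower in number 1. Among the probe sets above background these shares were 8.67% and 4.06%, beside 4 of 19. The 4 calls come from 2 genes, and 3 are readings of the same ITGB1 transcripts.

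ITGA2 had the clearest difference. Its 227314_at signals were 10.78 (POSTN) and 10.60 (control) in the arrays numbered 1, and 11.59, 11.72, 11.59 and 11.71 in the 4 others, without overlap. The number 1 arrays were 0.96 lower on the log2 scale (log2 difference -0.96, SE 0.071, adjusted p = 9.36e-05, limma F-test), a ratio of 0.51. Number 2 minus number 3 was -0.13 (SE 0.082). In 205032_at the difference was -0.32 (SE 0.10, adjusted p = 0.22), so that this probe set gave the same direction without passing the test.

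ITGB1 was lower in number 1 in each of its 3 bright probe sets. In 211945_s_at the arrays numbered 1 stood at 14.28 (POSTN) and 14.36 (control) and the others at 14.59 to 14.70, a difference of -0.32 (SE 0.051, adjusted p = 0.013, limma F-test). In 1553678_a_at they stood at 12.83 and 12.85 against 13.26 to 13.44 (-0.52, adjusted p = 0.00066), and in 1553530_a_at at 12.87 and 12.97 against 13.19 to 13.57 (-0.44, adjusted p = 0.0021). Each probe set kept the arrays numbered 1 apart from the rest. In the same order, number 2 minus number 3 was 0.0027 (SE 0.059), 0.14 (SE 0.061) and 0.29 (SE 0.070). Without POSTN replicate 1 the difference in 211945_s_at was -0.30 with an adjusted p of 0.066. The count of called probe sets was 3 without that array and 7 without POSTN replicate 2, and it was 0 when the prior variance of limma did not follow the signal, a setting under which 0 of all 54613 probe sets were called. Under that setting 3 of the 33 integrin probe sets had an unadjusted p under 0.05, against 8.97% of all, a share near that background.

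ITGA2 and ITGB1 are the chains called by number, and the 250 bases before their annotated starts are shown so that the pair can be read side by side. The windows come from RefSeq starts on GRCh38.p14. The set of windows used here held 8 of the 10 genes, without ITGB3 and ITGA3. ITGA2 lies on the plus strand (chr5:52989102-52989351) and ITGB1 on the minus strand (chr10:32958231-32958480), and both are written 5′ to 3′ along the gene. Capitals mark GGGCGG, the core of the GC box bound by SP1, and GGAATG, a sequence bound by TEAD factors, on either strand.
ITGA2: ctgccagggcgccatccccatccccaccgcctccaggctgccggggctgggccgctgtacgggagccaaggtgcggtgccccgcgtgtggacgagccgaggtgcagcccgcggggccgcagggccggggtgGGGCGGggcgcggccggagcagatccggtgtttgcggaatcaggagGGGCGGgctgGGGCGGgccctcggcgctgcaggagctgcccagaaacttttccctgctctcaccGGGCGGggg
ITGB1: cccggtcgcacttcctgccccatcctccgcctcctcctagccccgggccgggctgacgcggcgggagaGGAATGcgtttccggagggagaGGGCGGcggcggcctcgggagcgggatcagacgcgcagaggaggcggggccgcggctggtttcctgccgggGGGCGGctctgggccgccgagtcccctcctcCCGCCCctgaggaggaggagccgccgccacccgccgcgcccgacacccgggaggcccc
GGGCGG occurred 4 times before ITGA2, at 119, 73, 63 and 9 bases before the start, and 3 times before ITGB1. It was found in 5 of the 8 windows and in 42.2% of 27305 genes. GGAATG occurred in ITGB1 and ITGA5, at 182 and 82 bases before the start, and in 12% of all genes. The AP-1 sequence TGANTCA was in 0 of the 8 windows and in 6.57% of all genes. No match of 1 motif overlapped a match of another in these windows, and a match describes the sequence only.

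Of the chains that did not pass the test, ITGB3 showed the largest difference above background. Its arrays numbered 1 stood at 6.19 (POSTN) and 5.88 (control), near background, and the others at 7.0 to 7.52 (-1.24, SE 0.31, adjusted p = 0.12, limma F-test). It was called when POSTN replicate 2 was left out (adjusted p = 0.020) and when number 1 was set against the mean of 2 and 3 in place of the F-test (adjusted p = 0.042). The other ITGB3 probe sets above background differed by -0.55 (adjusted p = 0.64) and -0.44 (adjusted p = 0.83), in the first with overlap between the numbers, and the mean of the 3 by -0.74 (adjusted p = 0.49). ITGA5 was at 7.92 and 7.70 against 8.05 to 8.62 (-0.51, adjusted p = 0.19). ITGA3 was at 8.88 and 9.0 against 9.04 to 9.56 (-0.37), and its number 2 minus number 3 was -0.36 (SE 0.14). ITGA3 had an adjusted p of 0.10 in the limma F-test, which counts both differences. It passed without POSTN replicate 2 (adjusted p = 0.026) or control replicate 2 (0.024). In these 3 probe sets both arrays numbered 1 lay below the 4 others.

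ITGAV and ITGB5, the chains of a periostin receptor, differed by less than most others with the number and did not pass the test, by -0.15 (SE 0.053, adjusted p = 0.23) and -0.11 (SE 0.059, adjusted p = 0.47). ITGA1 differed by -0.075 (SE 0.35). ITGA6 was the only chain above background whose brightest probe set was higher in number 1, by 0.13 (SE 0.11, adjusted p = 0.74; without POSTN replicate 2, -0.0087 and 0.041), and its other probe set differed by -0.15. Both arrays numbered 1 were below the 4 others in 11 of the 19 probe sets above background, against 18.6% of all probe sets there, and above them in 0 of 19, against 21.2%. With each array centred on its median the 11 became 7.

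Unlike most of the chains, the brightest ITGB8 probe set had its highest values in number 1. It read 6.59 (POSTN) and 7.33 (control) in the arrays numbered 1, above the background level, and 2.05 to 5.19 in the 4 others. As those 4 arrays lay within background, no size of the difference can be read. The adjusted p was 0.083 (limma F-test), and in the other 4 ITGB8 probe sets it was above 0.10.

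**Figure D3:**
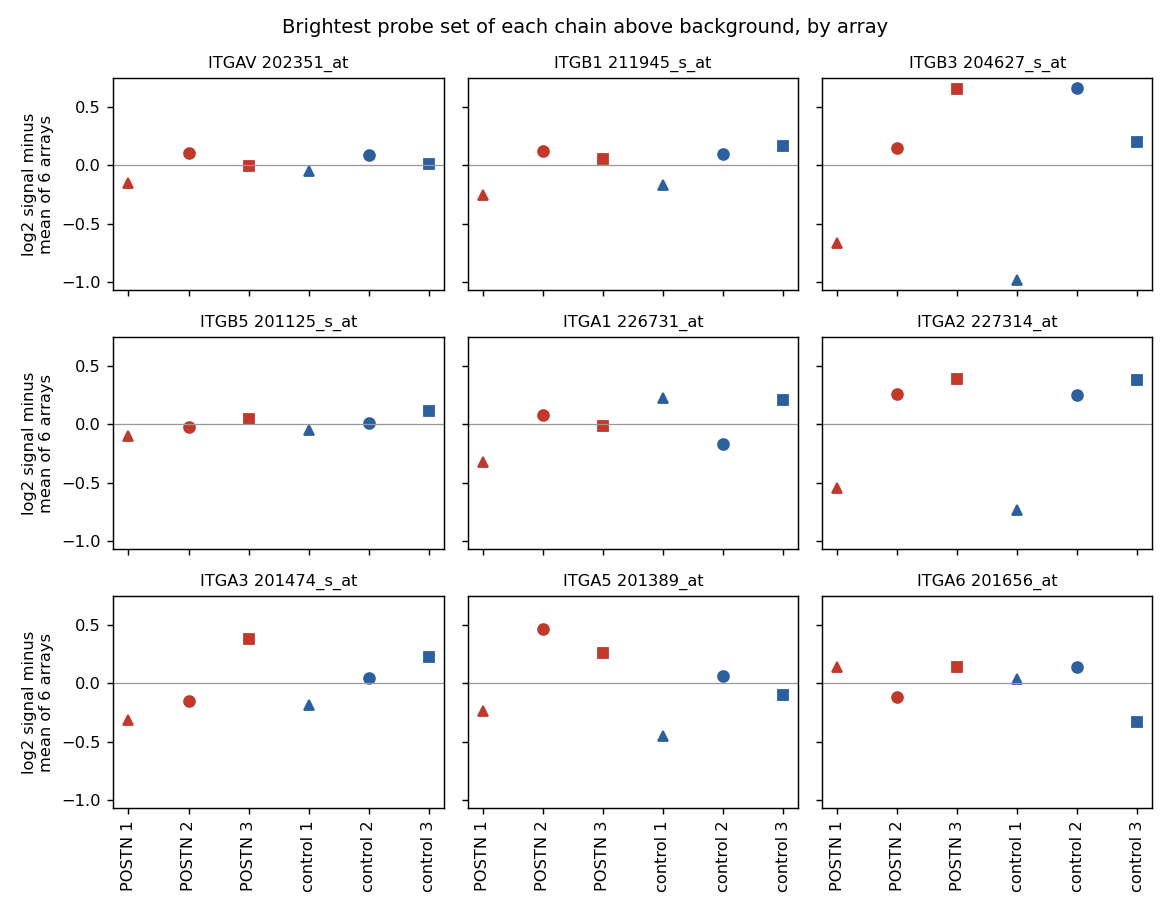
Log2 signal minus its mean over the 6 arrays (vertical axes) on each array (horizontal axes), for the brightest probe set of the 9 chains above background, with POSTN arrays in red and control arrays in blue. Both arrays numbered 1 (triangles) are the lowest in ITGAV, ITGB1, ITGB3, ITGB5, ITGA2, ITGA3 and ITGA5, by 1.24 on average for ITGB3 and 0.96 for ITGA2.

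Markers moved with the number as well, beside calls of 609 genes lower and 705 higher in number 1 among all 19775. ALB, FGB and TF, plasma proteins of hepatocytes, were higher in number 1 (log2 differences of 1.85, 2.65 and 2.83). SERPINA1, the fourth of the 10 hepatoma markers called, read 7.82 (POSTN) and 7.79 (control) in number 1 and 4.14 to 5.85, within background, in the others. The median number 1 difference of that list was 0.96 over the 10 measured genes and 0.042 over the 8 above background. Its summed linear signal did not separate the numbers, at 47944 (POSTN) and 51818 (control) in number 1 and 50253 to 55110 in the others. Such a sum adds unlike probe sets and weighs the bright ones most, so it can hide shifts in dimmer genes. The stellate cell list summed to 3454 and 2967 in number 1 and 3567 to 3885 in the others, with DCN lower in number 1 (-1.0) and PDGFRB and POSTN within background. The endothelial list summed to 1411 and 1667 against 1007 to 1269, with PECAM1 higher in number 1 (0.51) and VWF and CDH5 within background. The leukocyte list summed to 505 and 469 against 365 to 458, with PTPRC within background. Genes within background entered these sums, 7 of the 10 stellate cell, 2 of the 4 endothelial and 3 of the 5 leukocyte genes. The part of the marker differences in the integrin differences was not tested.

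The other integrin chains gave no call. Of 15 measured, 6 were above background (ITGA10, ITGA11, ITGAE, ITGAM, ITGB4 and ITGB7) and 0 of the 15 were called for POSTN or for the number. ITGB4, the partner of ITGA6, stood at 8.05, 7.20 and 6.92 on the POSTN arrays and at 8.11, 7.48 and 7.55 on the control arrays. It was 0.32 lower with POSTN (log2 difference -0.32, SE 0.32), and 0.79 higher in number 1 (SE 0.22, adjusted p = 0.15, limma F-test). ITGAM, a leukocyte chain, differed by 0.58 in number 1 (adjusted p = 0.19). ITGB7 showed the highest POSTN difference of the 6, at 0.67 (SE 0.39), and ITGA10, ITGA11 and ITGAE differed by 0.22, 0.079 and -0.058.

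Matrix ligands of integrins were listed in the same way, and 25 of 30 were measured, 19 above background. None was called for POSTN, where the largest values above background were 0.25 for COL1A1, 0.12 for LAMB1, -0.21 for NID1 and -0.11 for COL4A2. By number, 4 of the 25 were called and all 4 were lower in number 1, against 609 lower and 705 higher of all 19775 genes. The median number 1 difference of the list was -0.057. TNC (tenascin C) had log2 signals of 6.16 (POSTN) and 6.39 (control) in number 1 and of 8.78 to 9.07 in the others (-2.69, SE 0.18, adjusted p = 4.34e-05, limma F-test). CCN1 and CCN2, matricellular proteins that bind ITGAV and ITGB1 receptors, were lower by 1.19 and 1.01 (log2 differences of -1.19 and -1.01), and TGFBI, a paralog of periostin, by 0.64 (-0.64). FN1, the ligand of ITGA5, differed by -0.057 (SE 0.049).

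The calls on the cytoplasmic side were in the same direction. Of the adaptors that link integrins to actin, 28 of 30 were measured, 24 of these above background. The median number 1 difference of this list was -0.079. By number 5 were called, all lower in number 1, against 609 lower and 705 higher of all 19775 genes. The 5 were PXN (paxillin, -0.79), FERMT2 (kindlin-2, -0.51), VCL (vinculin, -0.45), RSU1 (a partner of the ILK complex, -0.35) and RAP1B (a GTPase that promotes talin binding, -0.33). None was called for POSTN. There TLN1 (talin 1), which binds the beta chain tail, had the highest value, with 7.0, 7.81 and 7.14 on the POSTN arrays and 6.87, 6.80 and 6.54 on the control arrays. These did not overlap, as was so in 5.64% of all probe sets above background. The difference of 0.58 (SE 0.30, adjusted p = 1.0, limma) did not pass. ACTN1 followed at 0.14, and PTK2B and TNS1 were lowest at -0.38 and -0.36.

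Membrane proteins that lie beside integrins split. Of 19, all measured and 18 above background, PLAUR (the urokinase receptor, -0.70) and SDC4 (syndecan-4, a co-receptor for fibronectin, -0.46) were lower in number 1, and the tetraspanin TSPAN8 (1.19) and SDC1 (syndecan-1, 0.50) were higher. CD9 and CD151, tetraspanins that bind laminin receptors, differed by -0.0095 and 0.099. Of 11 genes of TGF-beta storage and release, 8 above background, LTBP1 (-0.70) and TGFB2 (-0.38) were lower and LTBP3 (0.78) higher. For POSTN 0 were called in either list, and LTBP4 (0.77) and LTBP2 (0.41) had the highest values. Over all 19775 genes, 609 were called lower in number 1 and 705 higher, so that the lists above are read beside calls in both directions.

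**Figure D4:**
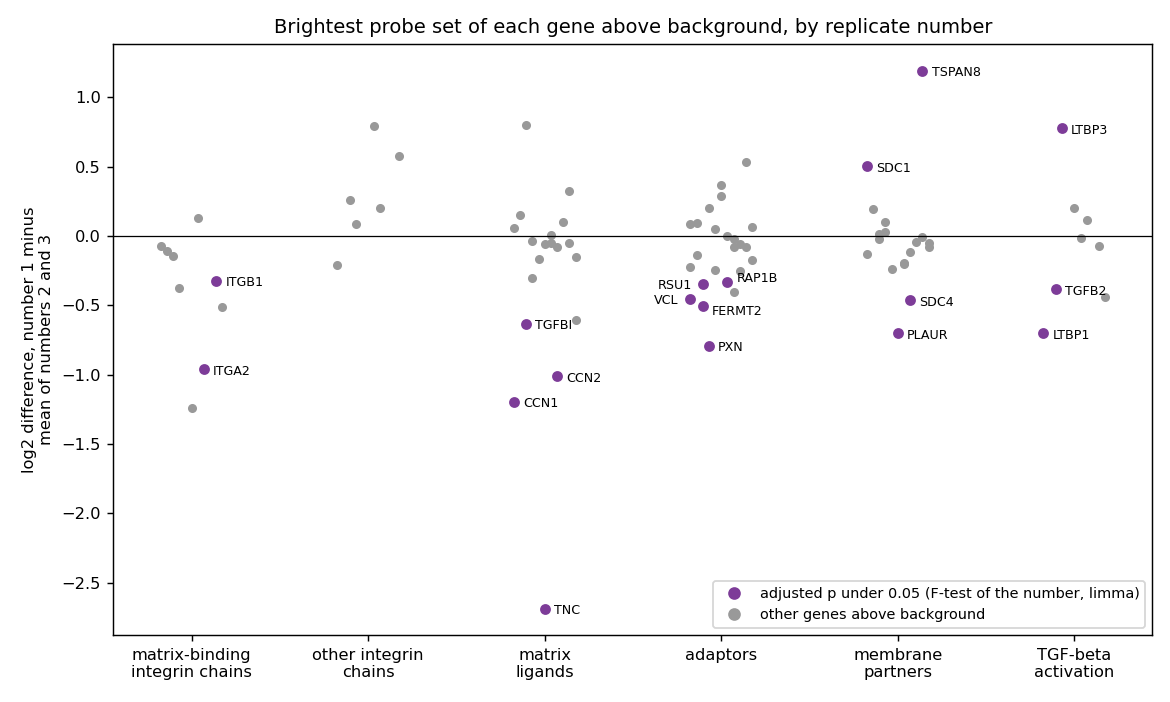
Log2 difference, number 1 minus the mean of numbers 2 and 3 (vertical axis), of the brightest probe set of each gene above background, by gene list (horizontal axis), with genes at an adjusted p under 0.05 (limma F-test) named in purple. ITGA2 (-0.96), ITGB1 (-0.32), 4 matrix ligands, 5 adaptors, PLAUR, SDC4, LTBP1 and TGFB2 are called below 0, and TSPAN8, SDC1 and LTBP3 above it.

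The genes whose pattern over the 6 arrays was most like that of a chain were found among 11549 genes above background, by the root mean square difference of log2 signals centred on their own means. For ITGB1 these were DYNLRB1 (0.015), TAP2 (0.021), UBE2E3 (0.024), MYADM (0.024) and SLC6A6 (0.027). For ITGB3, the chain with the widest range (1.64) among brightest probe sets above background, the nearest were less alike, BHLHE41 (0.14), RGS4 (0.15), FGF2 (0.16), NEXN (0.17) and APOLD1 (0.17). ITGA2 was added after its values had been seen, and its nearest were SPRY2 (0.035), DCN (0.051), CCN2 (0.058), HLX (0.062) and CCL26 (0.072). SPRY2 read 9.44, 10.18 and 10.38 on the POSTN arrays and 9.17, 10.24 and 10.36 on the control arrays, with the same low arrays numbered 1 as ITGA2. All of these share the 6 arrays and the split between number 1 and the rest, and the measure says nothing of function.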

How the data were processed

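RNA of 6 samples, 3 per group, was hybridized to HG-U133 Plus 2.0 arrays. The authors computed MAS 5.0 signals with the affy package (versions not given in the sources used here), and the deposited values are their log2. On the linear scale the mean without the highest and lowest 2% was 500 on every array. The 62 control probe sets were left out of 54675 rows. Groups and replicate numbers came from the sample labels.

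The POSTN and control arrays were compared by limma 3.58.1 under R 4.3.3 (lmFit, eBayes with trend), without a filter, as the methods name a t-test and no covariate. Replicate number was tested by an F-test with group as a term. Adjustment was by Benjamini-Hochberg over all 54613 probe sets. Symbols came from the platform annotation, where 41091 probe sets have 1 symbol, 1801 several and 11721 none. The brightest probe set stands for a gene in lists. From lists, the genes above background with up to 2 of the largest rises and falls were named, and all called by number. The members, lists and tests were chosen with earlier results of these data known.

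Deviations of same-numbered arrays from their group means correlated at 0.529, 0.235 and 0.239 over 25320 probe sets above background (0.088, 0.034 and 0.025 over all). The margin was small for numbers 2 and 3, as POSTN 3 with control 2 gave 0.201 and POSTN 2 with control 3 gave 0.150. All same-numbered values above background passed 0.1, but so did both of these crossed values, so this level cannot tell number 2 from number 3. Each number was taken as a pair on these values and not on the labels. For POSTN, the pairing entered only the replicate block and the differences between same-numbered arrays. The main POSTN fit had no number term, so its SE and intervals carry the spread between numbers. For ITGA2 227314_at the SE was 0.30, and 0.067 with the block, and for ITGB1 211945_s_at 0.12 and 0.048. On simulated data over 54613 probe sets, 49% of 200 changes of 1 log2 unit and 84.5% of changes of 2 were recovered for POSTN. For the number, 0% and 42% were recovered. The simulated spread was what remained after group and number were fitted, and it held no differences between numbers. The POSTN fit of the real arrays carried these differences, so the POSTN shares do not apply to it. Number calls on the real arrays included differences smaller than 1 log2 unit. Why the simulation recovered 0% at 1 unit was not tested.

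The alternatives were other scalings, log2(value + 50), filters on dim or cross-hybridising probe sets, no trend, array weights, the replicate block, the methods' t-test, no group term, the mean of probe sets per gene, another background percentile and leaving out each array. Leaving out both arrays numbered 1, and a contrast of number 1, were added after seeing the data. The number of arrays limits the precision.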

Additional observations from a re-analysis of the deposited data

How the results depend on the processing

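Of the 167 values of the brightest probe sets of the 10 chains for POSTN under the alternatives, 145 kept their direction and none passed an adjusted p of 0.05 (limma), with or without the replicate block, for which the lowest adjusted p over all probe sets was 0.25. Quantile normalization gave 0.0058 for ITGAV and 0.0037 for ITGB1. With _x_at and _s_at probe sets left out, ITGB5 was read by another probe set at 0.055 (POSTN) and ITGB3 at 0.092 (number). Without both arrays numbered 1, ITGAV was at 0.0028, ITGB3 at -0.030 and ITGA1 at 0.013. The mean of probe sets gave -0.081 for ITGB3 and -0.14 for ITGA2 (POSTN), and -0.010 for ITGA6 (number). Leaving out 1 array at a time gave ranges of -0.094 to 0.034 for ITGAV, -0.15 to 0.059 for ITGB1, -0.38 to 0.44 for ITGB3, -2.01 to 0.26 for ITGB8, -0.28 to 0.36 for ITGA2, -0.26 to 0.085 for ITGA3 and -0.035 to 0.20 for ITGA6 (POSTN), and of -0.35 to 0.20 for ITGA1 and -0.0089 to 0.26 for ITGA6 (number). The cause of these changes was not tested.

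The count of 1 probe set at the study's thresholds was 0 with log2(value + 50), with only probe sets above background, without _x_at and _s_at probe sets, without the trend, with array weights, with the replicate block and with the methods' t-test, and 0 to 2 with 1 array left out. The count of 4 called by number was 0 without the trend and 3 to 7 with 1 array left out. In its brightest probe set ITGB1 also missed the threshold by number after quantile normalization (-0.23, adjusted p = 0.052) and with log2(value + 50) (-0.32, 0.052), while ITGA2 missed it only without the trend (adjusted p = 0.49). The 90th percentile put the background level at 5.70. Of the sets within background, none has a level that can be read, since the median SD within a group was 0.90 between 4 and 6 on the log2 scale and 1.29 below 4, against 0.13 above 10.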
